A study of Mus musculus with 4 samples.

Results

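Accessible chromatin was described at 10 genes of the oxygen response, namely the regulators Hif1a, Epas1 and Egln3, the growth factor gene Vegfa, the glucose genes Slc2a1, Pfkfb3 and Ldha, and the stress genes Bnip3, Ddit4 and Ndrg1. The genes were taken as a list, and every peak in or within 50 kb of a gene was assigned to it. In ATAC-seq a transposase, Tn5, inserts adapters wherever DNA is exposed, and a peak is a stretch where inserted fragments pile up. Overlapping peaks of the 4 libraries were joined into sites. The 10 genes held 626 peaks in 216 sites, of 170558 sites on the chromosomes of the genome. The site farthest inside the 50 kb limit lay 49910 bp from Hif1a, and the nearest outside it lay 50211 bp from Bnip3. Each of these had a peak in P0 library A alone, with a fold enrichment of 3.73 and 3.31.

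The libraries came from chondrocytes of the knee cartilage of C57BL/6 mice aged 0 to 4 days, with no transgene or drug. Cells were collected as primary cells cultured for less than 24 h (P0, 2 libraries) or after 8 passages (P8, 2 libraries), in medium with 10% serum and with 50000 cells per library, and were replated each time their number had doubled from 24000 to 48000 cells per cm2. Nothing in the labels says that the 2 libraries of a passage came from separate animals or cultures, so the spread between them may be technical. The peak lists do not give replicate numbers, and the libraries are called A and B. Depth, read from the background of the peak caller, came to 194 (A) and 162 (B) tags per 10 kb for the P0 libraries. For the P8 libraries it came to 140 (A) and 134 (B). Both P0 libraries were therefore deeper than both P8 libraries.

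Of 8 chondrocyte marker genes, 8 had a peak within 1 kb of the gene start in each P0 library and 7 in each P8 library, with Matn1 lacking one at P8. The peaks in or within 50 kb of the marker genes numbered 201 and 178 at P0 and 95 and 128 at P8, with Acan holding the most in P0 library A, 37. Of 6 fibroblast markers 6 and 6 had a start peak at P0 and 5 and 4 at P8, and their peaks numbered 85 and 71 against 68 and 72. Of 5 blood and macrophage genes 2 and 2 had a start peak at P0 and 1 and 1 at P8. Spi1 had one in every library and Cd68 in the P0 libraries, while Ptprc, Csf1r and Adgre1 had none. Of 4 endothelial genes Kdr and Tek had a start peak in all 4 libraries and Pecam1 and Cdh5 in none. For Csf1r, Adgre1, Spi1, Pecam1, Cdh5, Myod1, Sox9, Col2a1, Comp, Col1a1 and Thy1 the promoter table gave no start. Both ends of the gene record were searched for these, so a peak at a start inside the record would be missed. A start peak counted for them, as at Spi1 and Myod1, may also lie at the far end of the gene. Of 3 erythroid and 3 skeletal muscle genes 1 each, Klf1 and Myod1, had one in every library, and of 2 epithelial genes Epcam had one at P0 only. The ratio of mean peak numbers, P0 over P8, was 1.70 for the chondrocyte list, 1.11 for fibroblasts, 1.38 for blood and macrophages, 1.96 for the erythroid, 1.38 for the endothelial, 2.10 for the muscle and 2.17 for the epithelial list, with 1.40 for all peaks of the genome. The part of these lists in the results for the hypoxia genes was not tested. In bulk libraries fewer cells of a type and less open chromatin per cell cannot be told apart.

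Cartilage has no blood vessels, and its cells live at low oxygen and draw much of their energy from glycolysis. When oxygen is plentiful, prolyl hydroxylases such as the product of Egln3 mark the HIF alpha subunits, encoded by Hif1a and Epas1, for destruction. When oxygen is scarce the subunits persist, pair with ARNT and bind the core of the hypoxia response element near their targets, among them the other genes described here.

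The promoters of Ldha, Bnip3, Egln3 and Vegfa are shown because they span the range of hypoxia element cores found at open gene starts, from the most in the list to none. They were read from the RefSeq promoter table (GRCm38.p6), which holds 250 bases before and 50 after the start and had entries for 8 of the 10 genes, without Epas1 and Ndrg1. The windows are chr7:46845554-46845853 and chr7:46846832-46847131 on the plus strand for the Ldha starts, chr7:138909457-138909756 for Bnip3, chr12:54203825-54204124 for Egln3 and chr17:46032328-46032627 for Vegfa, the last 3 on the minus strand. Each is written 5′ to 3′, and capitals mark ACGTG or GCGTG on either strand, so that CACGTG marks the core on both strands at once.
Ldha, start with a peak in all 4 libraries: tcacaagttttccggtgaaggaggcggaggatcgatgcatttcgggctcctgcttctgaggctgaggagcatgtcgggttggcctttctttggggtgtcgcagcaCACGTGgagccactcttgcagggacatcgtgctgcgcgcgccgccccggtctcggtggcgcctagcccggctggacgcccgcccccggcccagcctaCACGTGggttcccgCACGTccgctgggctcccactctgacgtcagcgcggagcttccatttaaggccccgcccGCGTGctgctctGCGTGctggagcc
Ldha, start overlapped by a peak in the P0 libraries only: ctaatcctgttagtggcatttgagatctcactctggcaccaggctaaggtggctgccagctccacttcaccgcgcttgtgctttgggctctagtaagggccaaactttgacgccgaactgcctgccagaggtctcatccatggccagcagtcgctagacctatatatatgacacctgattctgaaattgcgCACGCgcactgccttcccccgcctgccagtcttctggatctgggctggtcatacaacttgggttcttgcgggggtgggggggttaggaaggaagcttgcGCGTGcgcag
Bnip3: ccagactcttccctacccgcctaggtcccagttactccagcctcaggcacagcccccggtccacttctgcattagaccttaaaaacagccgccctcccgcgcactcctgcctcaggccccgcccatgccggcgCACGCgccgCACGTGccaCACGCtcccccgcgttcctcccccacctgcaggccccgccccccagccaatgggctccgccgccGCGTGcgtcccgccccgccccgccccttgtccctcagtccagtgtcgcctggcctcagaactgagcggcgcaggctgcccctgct
Egln3: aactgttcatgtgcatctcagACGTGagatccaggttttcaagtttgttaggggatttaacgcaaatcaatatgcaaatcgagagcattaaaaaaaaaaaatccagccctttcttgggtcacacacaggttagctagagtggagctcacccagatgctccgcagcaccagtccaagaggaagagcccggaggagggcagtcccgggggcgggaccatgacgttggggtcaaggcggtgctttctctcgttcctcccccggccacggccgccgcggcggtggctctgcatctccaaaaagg
Vegfa: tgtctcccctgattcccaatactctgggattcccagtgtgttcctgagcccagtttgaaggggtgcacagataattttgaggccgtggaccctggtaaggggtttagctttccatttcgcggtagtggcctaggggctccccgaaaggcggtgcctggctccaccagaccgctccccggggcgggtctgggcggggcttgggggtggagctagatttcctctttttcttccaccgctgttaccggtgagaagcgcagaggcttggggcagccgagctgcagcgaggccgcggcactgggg

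Ldha, which encodes the enzyme that turns pyruvate into lactate, had 7 matches at the start that was open in all 4 libraries, between positions -145 and 37 relative to it, with CACGTG present at 2 places. At least 7 matches were found in 0.301% of 32851 promoters of 300 bp. Bnip3, a mitophagy receptor, had 5 matches, a number reached by 1.66% of promoters. Egln3 had 1, at position -229. In P8 library B the start peak of Egln3 covered 149 of the 300 bases, against 251 in P0 library A. No match was found in the Vegfa window shown, which says only that these letters are not in these 300 bases. The window of the other Vegfa start, at 46025163, was overlapped by no peak in any library and held 2 matches, at positions -218 and -211.

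Over the 11 promoter windows of the 8 genes, 10 held ACGTG or GCGTG, compared with 43.8% of all promoters. ACGTG alone was in 9 windows, against 19.6% of promoters, and CACGTG in 4, against 7.15%. Of the 9 windows with a peak in all 4 libraries, 8 held ACGTG. Among all 12847 promoters with peaks in all 4 libraries this share was 26.7%. ACGTG or GCGTG was likewise in 8 of the 9 windows, against 65.6% of these promoters, and CACGTG in 4, against 10.4%. The AP-1 motif, searched on both strands as TGACTCA or TGAGTCA, was in none of the 11 windows and in 5.20% of promoters. The matches are a description of sequence, with no test.

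Each of the 10 genes had a peak within 1 kb of its start, or for Epas1 and Ndrg1 of a gene end, in all 4 libraries. So did 59.5% of 21883 protein-coding genes. The passages differed in the number of peaks in and around the genes, starts included, and in the height of the peaks. Sites within 1 kb of a start held 28 (A) and 27 (B) peaks at P0 and 21 (A) and 20 (B) at P8. The 10 genes together had 204 (A) and 160 (B) peaks at P0, compared with 125 (A) and 137 (B) at P8. The P0 libraries were both above the P8 libraries. The mean was 182 ± 31.1 at P0 and 131 ± 8.49 at P8 (SD, n = 2 each), a ratio of 1.39 (SD 0.254). An exact two-sided permutation test gave p = 0.333, the smallest this test can give with 2 libraries against 2, so it could not pass a threshold of 0.05. The same ratio over the whole genome was 1.40. When only peaks were kept that would reach the caller's limit at the background of the shallowest library, the ratio was 1.37 for the 10 genes and 1.37 for the genome.

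At 7 of the 10 genes both P0 libraries had more peaks than both P8 libraries, namely Epas1, Egln3, Vegfa, Slc2a1, Pfkfb3, Ldha and Ndrg1. Among 20361 protein-coding genes with any peak in the window, 48.3% had this order, and 46.7% at matched background, where the same 7 genes had it. None of the 10 genes had more peaks in both P8 libraries, an order seen at 3.95% of genes. The libraries overlapped at Hif1a, Bnip3 and Ddit4. With sites counted in place of peaks the order held at 6 genes, without Egln3.

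**Figure D1:**
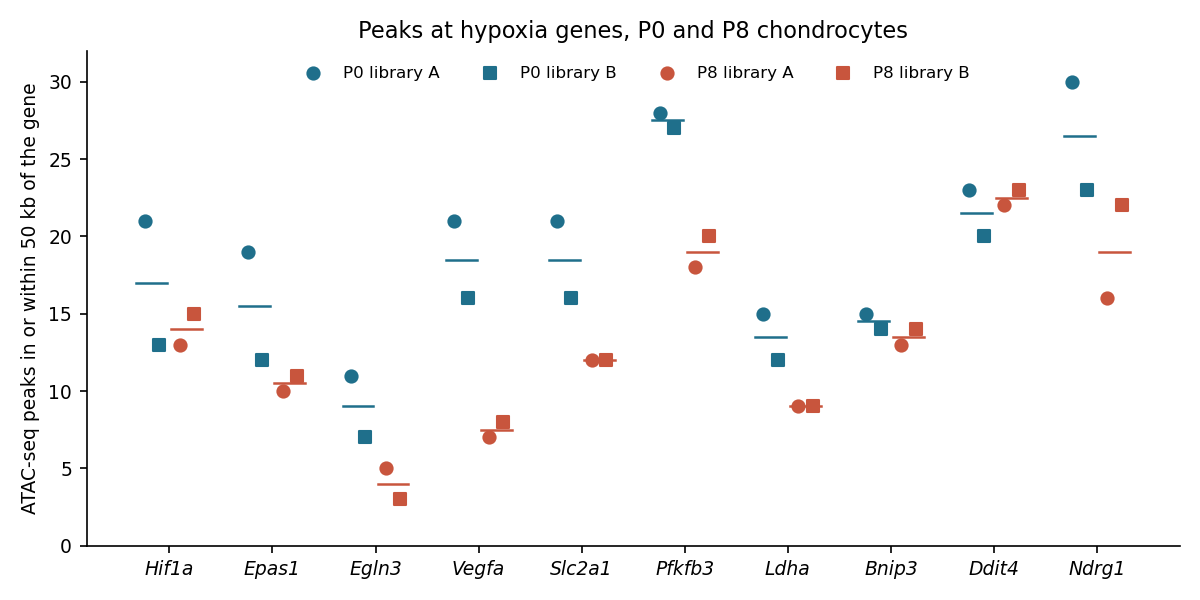
Number of ATAC-seq peaks (y axis) in or within 50 kb of each gene (x axis), 1 point per library and a bar at the mean of the 2 libraries of a passage. Vegfa had 21 and 16 peaks at P0 against 7 and 8 at P8, while the 4 libraries lay between 20 and 23 at Ddit4 and between 13 and 15 at Bnip3.

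Of the 216 sites, 82 (38.0%, against 32.4% of all sites in the genome) had peaks in all 4 libraries and 60 (27.8% against 33.0%) in a single library. Of the latter, 43 were in P0 library A, the deepest, which is 19.9% of the 216 sites against 17.5% of all sites. Sites held by the P0 pair of libraries and absent from P8 numbered 32, or 14.8% (95% Wilson interval 10.7 to 20.2%), against 17.1% of all sites in the genome. Sites held by the P8 pair and absent from P0 numbered 4, or 1.85% (0.722 to 4.66%), against 1.82%. The intervals cover counting error only. With all 4 libraries the share near these genes was close to that of the genome in both directions. Without P0 library B, when only 1 P0 library had to hold a peak, the first count was 78, or 36.3% against 37.2% of all sites. The second count was 13 without P0 library A, or 6.91% against 4.81% of all sites. It was 9 without P8 library A, or 4.23% against 6.91%, and 7 without P8 library B, or 3.30% against 7.60%, so with a P8 library left out the share was below that of the genome.

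The size of a site was taken over the libraries that held it. Its highest value and its joined width can only grow with each further library, so the classes are not compared on equal terms. Fold enrichment is the pileup at the summit plus 1 over the local background plus 1. At the 32 P0-only sites its median highest value was 5.38, compared with 8.59 at the 82 sites in all 4 libraries. The median width was 215 bp against 529 bp. The medians were 4.95 and 189 bp at the 4 P8-only sites, and 4.13 and 142 bp at the 98 sites with other patterns. Vegfa and Pfkfb3 held 7 each, Ndrg1 6, Slc2a1 4, Epas1 and Ldha 3 each and Hif1a 2. Egln3, Bnip3 and Ddit4 held none. Of the 32 sites, 12 lay inside a gene and 20 outside, and 3 lay within 1 kb of a gene start. The 4 P8-only sites were 2 at Vegfa, 1 at Pfkfb3 and 1 at Bnip3, and each lay outside the gene.

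**Figure D2:**
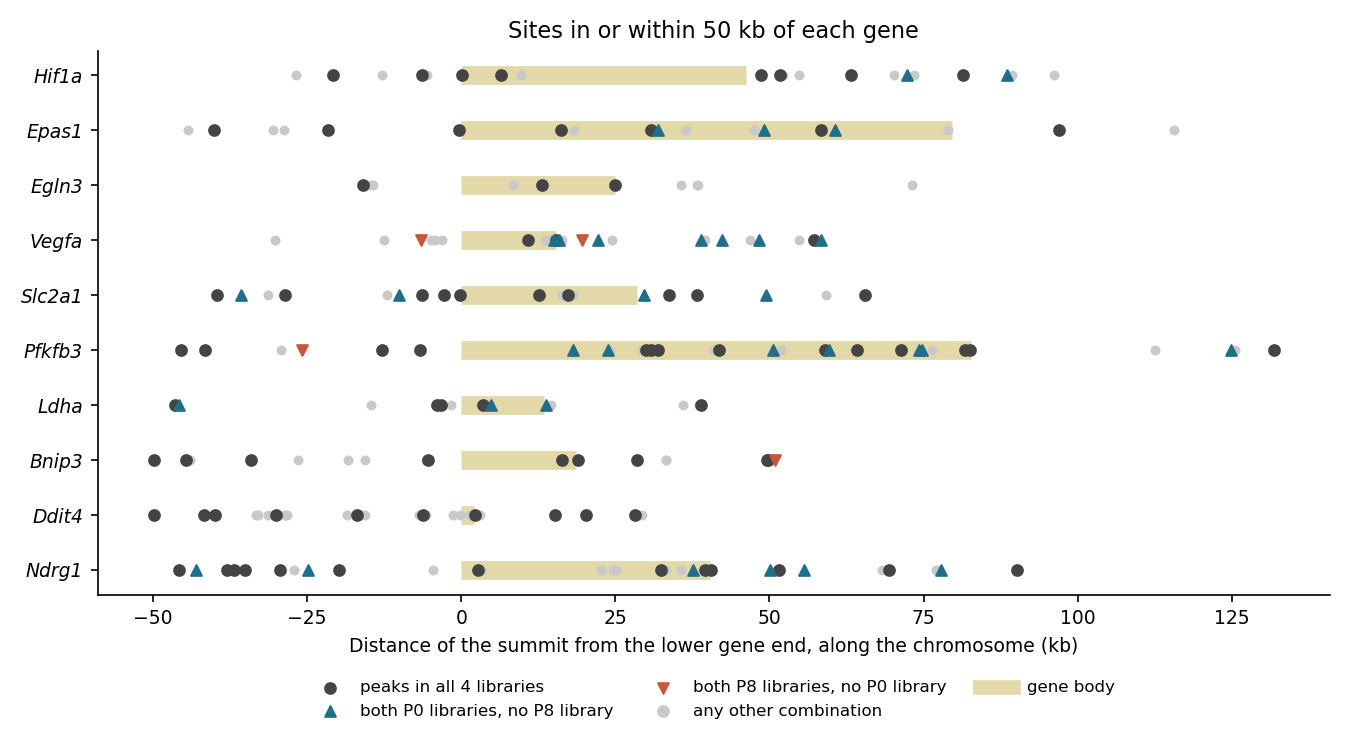
Summits of the 216 sites by gene, as distance in kb from the lower end of the gene along the chromosome (x axis), with the gene body as a bar. Triangles pointing up mark the 32 P0-only sites, held by the P0 pair and absent from P8, and triangles pointing down the 4 sites with the opposite pattern, with 7 and 2 of them around Vegfa.

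Hif1a (chr12:73901324-73947554) encodes the oxygen-labile alpha subunit of HIF-1. It had 21 and 13 peaks in the P0 libraries and 13 and 15 in the P8 libraries, so the passages overlapped. Fold enrichments at its start, 8.78 and 9.70 at P0 and 9.49 and 9.47 at P8, overlapped as well. A site over the lower end of the gene record, 6355 bp before the start, had 8.52 and 8.03 at P0 and 5.29 and 7.01 at P8. A site 2099 bp past the gene showed the largest difference at Hif1a (chr12:73949653-73950007), with 5.50 and 5.78 against 3.19 and 3.99. Both of these sites were higher in the P0 libraries. The P0-only sites of the Hif1a window, at chr12:73973583-73973740 and chr12:73989690-73989888, had 4.97 and 4.58 and 7.23 and 5.02 in P0 libraries A and B, and both lay nearest to Snapc1. The highest site of the window, 20590 bp below the gene, had 14.9 and 11.9 at P0 and 11.9 and 15.4 at P8 and did not separate the passages.

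Epas1 (chr17:86753864-86833410) encodes HIF-2 alpha, which drives catabolic genes in chondrocytes. It had 19 and 12 peaks at P0 and 10 and 11 at P8. The promoter table gave no start for it, so both gene ends were used, and the lower end held a site with fold enrichments of 9.63 and 9.87 at P0 and 8.87 and 8.02 at P8. The highest site of its window (chr17:86732103-86732522), 21342 bp below the gene, had 12.3 and 14.6 at P0 and 8.90 and 9.72 at P8. Epas1 had 3 P0-only sites, and all 3 lay inside the gene. The tallest of them (chr17:86814472-86814584) had 4.70 and 6.57 at P0, and the others 5.82 and 3.59 (chr17:86785740-86785956) and 4.97 and 3.66 (chr17:86802811-86803035).

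Egln3 (chr12:54178981-54203874) encodes prolyl hydroxylase PHD3, itself a HIF target that feeds back on the pathway. It had 11 and 7 peaks at P0 and 5 and 3 at P8, a ratio of the means of 2.25, without overlap. None of its 10 sites was held by both P0 libraries alone. Counted as sites, so that peaks splitting 1 site count once, Egln3 had 10 and 4 at P0 and 5 and 3 at P8, and the passages overlapped. Its start held the highest fold enrichment among the starts of the 10 genes, 14.3 and 14.3 at P0 and 10.3 and 11.6 at P8. Divided without the added 1, pileup over background there came to 19.3 and 20.3 for P0 and to 17.4 and 19.6 for P8, and the libraries then overlapped. A site inside the gene, 11405 bp from the start, had 13.0 and 10.1 against 8.95 and 11.5, which overlapped.

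Vegfa (chr17:46016993-46032377) encodes the growth factor that draws vessels into cartilage and is a classic HIF target. It had 21 and 16 peaks at P0 and 7 and 8 at P8, and its ratio of 2.47 was the highest of the 10 genes. The difference of 11 between the means was larger than that of 96.2% of genes. Of its 25 sites only 3 had peaks in all 4 libraries. The site at its start had fold enrichments of 4.81 and 4.44 at P0 and 4.18 and 5.44 at P8, so the start itself did not separate the passages. The other start in the promoter table, at 46025163, had no peak within 1 kb in any library.

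The 7 P0-only sites of Vegfa included 2 that flanked the start, at 292 bp inside the gene (chr17:46031796-46032085) and at 339 bp before the start (chr17:46032716-46032927). Their fold enrichments were 2.65 and 3.94 for the first and 3.76 and 3.79 for the other. The remaining 5 lay before the start. The tallest of the 7 (chr17:46055796-46056454), 23419 bp before the start, had 7.65 and 5.16 in P0 libraries A and B, with pileups of 23 and 14 tags. The next were at 42808 bp (chr17:46075185-46075364, 7.22 and 4.29, nearest to Mrps18a) and at 32850 bp (chr17:46065227-46065336, 4.97 and 5.03). These are weak to moderate peaks, and no peak was called there in either P8 library.

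In the opposite direction Vegfa had 2 P8-only sites. One lay 4099 bp before the start (chr17:46036476-46036725) with 4.42 and 5.52 in P8 libraries A and B, and the other beyond the far end of the gene (chr17:46010332-46010489) with 3.98 and 3.44. The highest site in all 4 libraries (chr17:46073738-46074408), 41361 bp before the start and nearest to Mrps18a, had 6.89 and 6.23 at P0 and 7.86 and 8.22 at P8. It was thus higher in both P8 libraries, and lay 777 bp from a P0-only site. Sites of both orders thus stood in the Vegfa window.

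**Figure D3:**
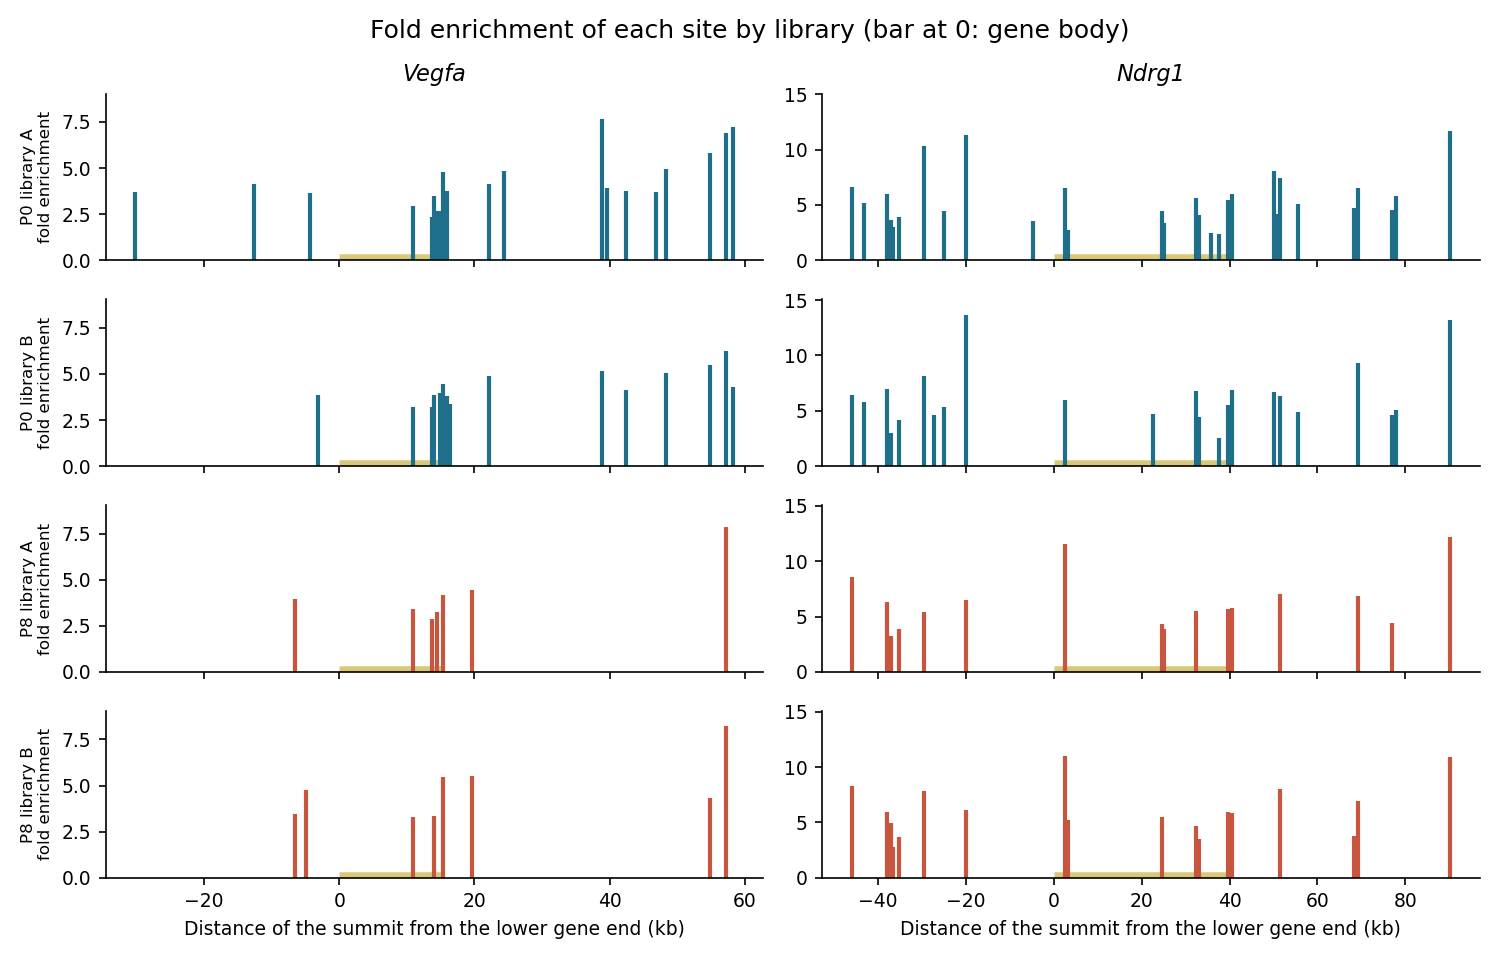
Fold enrichment of each site (y axis) against the distance of its summit in kb from the lower gene end (x axis) in the 4 libraries, for Vegfa (left) and Ndrg1 (right), with the gene body as a bar at 0. The bars above the Vegfa start at 23419 and 32850 bp are present in the P0 libraries and absent from the P8 libraries, and the bar just inside the lower end of Ndrg1 is at 6.50 and 5.97 at P0 and at 11.6 and 11.0 at P8.

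Slc2a1 (chr4:119108745-119137330) encodes the glucose transporter GLUT1. It had 21 and 16 peaks at P0 and 12 and 12 at P8. Its start was higher in both P8 libraries, with 5.74 and 5.96 at P0 and 6.04 and 6.84 at P8, a small difference. A site 6176 bp before the start (chr4:119102236-119102569) had 6.66 and 7.06 at P0 and 10.3 and 8.61 at P8, the largest difference towards P8 in this window. The highest site of the window (chr4:119173685-119174593) had 16.5 and 18.1 at P0 and 13.4 and 13.3 at P8 but lay nearest to Zfp691. Its 4 P0-only sites included 1 at 843 bp past the gene (chr4:119138173-119138528) with 5.08 and 5.68. The tallest of the 4 (chr4:119157928-119158203), with 7.04 and 5.95, lay nearest to Zfp691. Of the 10 Slc2a1 sites in all 4 libraries, 3 were higher at P0 and 2 at P8 by fold enrichment, and 1 and 3 without the added 1.

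Pfkfb3 (chr2:11471430-11554071) encodes the bifunctional enzyme that makes fructose 2,6-bisphosphate, an activator of glycolysis. It had 28 and 27 peaks at P0 and 18 and 20 at P8. It has starts at 11553929 and at 11502090, and both were open in the 4 libraries. The site at the start at 11553929 had 10.5 and 9.92 at P0 and 7.32 and 9.62 at P8, and the one at 11502090 had 5.83 and 7.24 against 7.36 and 6.95. Within the gene, 416 bp past the start at 11502090, a further site was higher in both P8 libraries, with 6.09 and 6.61 at P0 and 7.50 and 7.92 at P8.

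Of the 7 P0-only sites of Pfkfb3, 6 lay inside the gene. The tallest (chr2:11596109-11596501, 6.80 and 6.49) lay outside and nearest to Rbm17, and the tallest of the 6 inside were near equal, with 5.58 and 5.48 (chr2:11489435-11489624) and 5.39 and 5.64 (chr2:11546049-11546406). The highest site of the window (chr2:11429566-11430079), 41351 bp past the gene, had 17.2 and 17.7 at P0 and 15.0 and 16.2 at P8. Its P8-only site (chr2:11445444-11445609) lay 25821 bp past the gene, with 6.92 and 8.59 in P8 libraries A and B, and was the tallest of the 4 P8-only sites. A site 6288 bp past the gene (chr2:11464531-11465142) had 6.11 and 4.67 at P0 and 7.13 and 8.51 at P8. Between these sites a further one, 12557 bp past the gene (chr2:11458505-11458873), was higher in both P0 libraries, with 10.4 and 9.59 against 6.41 and 8.01. Sites of both orders thus lay beyond the gene.

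Ldha (chr7:46842274-46855627) had 15 and 12 peaks at P0 and 9 and 9 at P8. The start with 7 element cores had 8.15 and 9.71 at P0 and 7.28 and 7.48 at P8. At the other start, the window with 2 cores, a site (chr7:46846860-46847207) was held by the P0 libraries only, with 3.22 and 4.66. It was a low peak, with pileups of 22 and 26 tags, and P8 library A had another peak 714 bp from this start, with 4.03. The highest site of the window (chr7:46838769-46839742), 2532 bp before the gene record, had 9.86 and 9.99 at P0 and 10.2 and 11.6 at P8. A further P0-only site lay 156 bp past the gene (chr7:46855783-46856365), with 4.22 and 5.43. The last (chr7:46796368-46796488), with 3.88 and 4.38, lay nearest to Gtf2h1.

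Bnip3 (chr7:138890836-138909506) encodes a mitochondrial receptor for autophagy. It had 15 and 14 peaks at P0 and 13 and 14 at P8, and no P0-only site. Its start had 7.33 and 8.49 at P0 and 6.61 and 6.93 at P8, higher in both P0 libraries. Inside the gene, 2122 bp from the start (chr7:138906958-138907384), a site had 5.38 and 6.06 at P0 and 7.38 and 7.24 at P8, higher in both P8 libraries. A site 4850 bp past the gene (chr7:138885248-138885986), nearest to Ppp2r2d, had 8.09 and 7.27 against 5.14 and 5.09. A site 9591 bp before the start, the highest of its window, had 11.3 and 10.3 against 11.4 and 9.03 and did not separate the passages. Its P8-only site (chr7:138941637-138941848) was low, 3.81 and 4.38, and lay nearest to Jakmip3.

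Ddit4 (chr10:59949675-59951770) encodes REDD1, an inhibitor of mTORC1 that is induced by hypoxia and other stress. It was the only one of the 10 genes with a higher mean number of peaks at P8, 23 and 20 at P0 against 22 and 23 at P8, and the libraries overlapped. Only 5.60% of genes had a smaller difference of P0 minus P8. Its start had 5.44 and 5.46 at P0 and 6.16 and 6.42 at P8, higher in both P8 libraries. Of its 10 sites in all 4 libraries, 4 were higher at P0 by fold enrichment, 1 (the start) at P8, and 5 overlapped, while without the added 1 the counts were 3 at P0 and 4 at P8. The largest differences towards P0 were at distal sites. A site 12633 bp before the start (chr10:59964403-59965170) had 8.58 and 6.87 at P0 and 4.32 and 4.91 at P8, and one 29613 bp past the gene (chr10:59919498-59920062), nearest to Dnajb12, had 8.05 and 9.36 against 4.88 and 6.02. A site 16668 bp past the gene, the highest of the window, had near-equal values, with 11.0 and 10.2 against 10.3 and 10.5.

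Ndrg1 (chr15:66929318-66969641) encodes a stress-responsive protein widely used as a marker of hypoxia. It had 30 and 23 peaks at P0 and 16 and 22 at P8. The upper gene end, where a site was open in all 4 libraries, had 5.99 and 6.87 at P0 and 5.75 and 5.84 at P8. Both extremes of the sites in all 4 libraries lay in its window. A site inside the gene, 2480 bp from the lower end (chr15:66931798-66932201), had 6.50 and 5.97 at P0 and 11.6 and 11.0 at P8, a log2 ratio of -0.86. Of all 55294 sites in all 4 libraries, 0.242% were at or below that value, and 0.508% were below it by pileup over background without the added 1. A site 19576 bp below the gene (chr15:66909187-66909742) had 11.3 and 13.7 at P0 and 6.48 and 6.09 at P8, a log2 ratio of 0.99, and lay nearest to Ccn4. Of all sites 98.0% were at or below that value, and 95.7% were below it without the added 1. The 2 sites are 22056 bp apart and differed between the passages in opposite directions.

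Ndrg1 also held 6 P0-only sites. The tallest of the 32 P0-only sites was 1 of these (chr15:66979225-66979539), 9584 bp above the upper gene end, with 8.04 and 6.65 in P0 libraries A and B. The next had 5.19 and 5.76 (chr15:66886095-66886424, nearest to Ccn4) and 5.80 and 5.03 (chr15:67006964-67007317). Only 1 of the 6 lay inside the gene. A site 45337 bp below the gene (chr15:66883183-66883981), nearest to Ccn4, went the other way, with 6.65 and 6.38 at P0 and 8.60 and 8.25 at P8.

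Over the 82 sites in all 4 libraries, fold enrichment was higher in both P0 libraries at 36, or 43.9% (95% Wilson interval 33.7 to 54.7%), against 49.9% of all such sites in the genome. It was higher in both P8 libraries at 13, or 15.9% (9.51 to 25.3%), against 11.6%, and overlapped at 33. The median log2 ratio of P0 over P8 was 0.15, ranging from -0.86 to 0.99, and 0.20 over all sites. With 1 library left out fewer libraries had to agree. The sites higher at P8 then numbered 19 of 86 without P0 library A, or 22.1% against 20.7% of all sites. Without P0 library B they were 26 of 89, or 29.2% against 20.8%. They were 24 of 95 without P8 library A, or 25.3% against 22.9%, and 22 of 88 without P8 library B, or 25.0% against 16.6%. The median log2 ratio without P0 library B was 0.07, against 0.18 over all sites. The 1 that the peak caller adds to pileup and background lowers the fold enrichment more where the background is low, and the background was lower at P8. Pileup divided by background without it was higher in both P0 libraries at 14 of the 82 sites and in both P8 libraries at 24, with a median log2 ratio of 0.010. In the genome the shares were 30.9% and 20.7% and the median was 0.061. Without the added 1 sites higher at P0 thus still outnumbered those higher at P8 in the genome, and near the 10 genes those higher at P8 were the more numerous, while most sites there overlapped.

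Sites that kept their order both ways were fewer, and at 1 site of the Pfkfb3 window (chr2:11602419-11603501, nearest to Rbm17) the order turned. By fold enrichment it had 12.6 and 12.9 at P0 and 11.5 and 10.9 at P8. Without the added 1 it had 16.6 and 17.6 at P0 and 18.5 and 17.9 at P8. All 14 sites higher at P0 without the added 1 were also higher by fold enrichment, and all 13 sites higher at P8 by fold enrichment were also higher without it. The former included the sites below Ndrg1, before and past Ddit4, past Hif1a and past Bnip3 given above. Their pileups over background were 15.2 and 19.4 against 11.2 and 10.0 below Ndrg1 and 11.9 and 10.9 against 6.85 and 8.06 before Ddit4. The latter included the sites inside Ndrg1, with 8.80 and 8.66 at P0 and 17.6 and 16.3 at P8, before Slc2a1 and past Pfkfb3. The starts of Slc2a1 and Ddit4 were higher at P8 both ways, and those of Hif1a and of Pfkfb3 at 11502090 were so only without the added 1, with 9.82 and 11.2 against 11.8 and 11.6 at Hif1a. None of the sites over the gene starts used here, or over a gene end for Epas1 and Ndrg1, was higher in both P0 libraries both ways. The site over the lower end of the Hif1a record, 6355 bp before the start used, was higher at P0 both ways. Its pileups over background were 12.2 and 12.8 at P0 and 8.66 and 10.8 at P8.

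**Figure D4:**
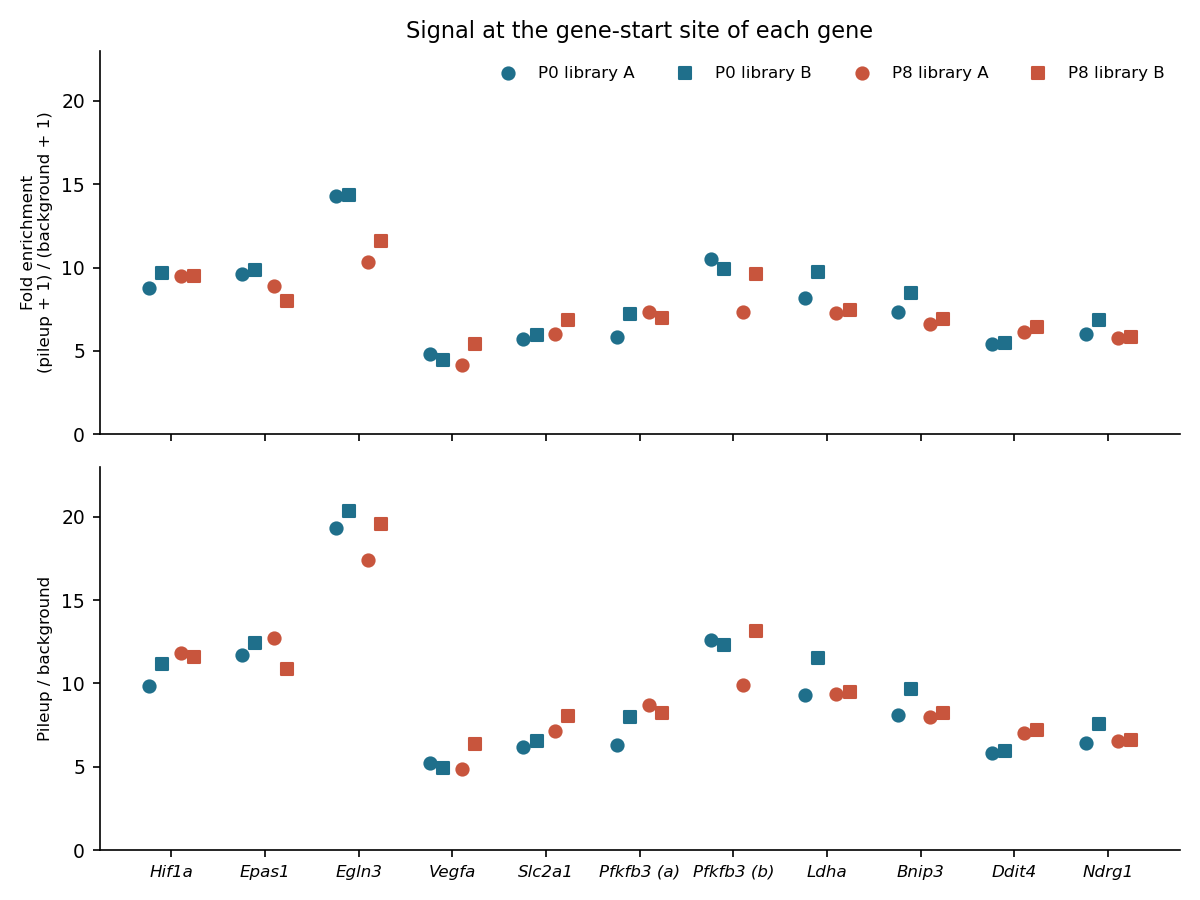
Fold enrichment (upper panel) and pileup over background (lower panel) at the site over the gene start, or for Epas1 and Ndrg1 a gene end, 1 point per library. Pfkfb3 (a) is the start at 11502090 and (b) the start at 11553929, and the gap between passages at Egln3, 14.3 and 14.3 against 10.3 and 11.6, closes in the lower panel.

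**Figure D5:**
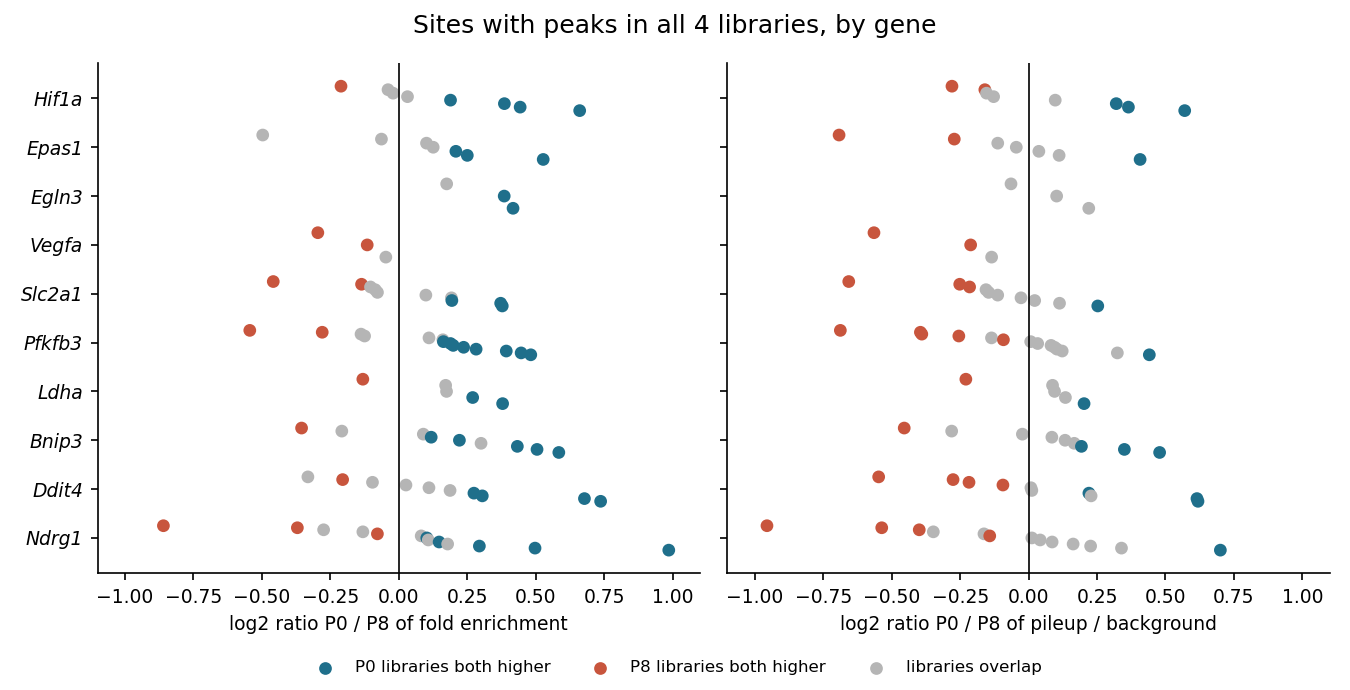
Log2 ratio of P0 over P8 (x axis, mean of the log2 values of the 2 libraries of each passage) of fold enrichment (left) and of pileup over background (right) at the 82 sites in all 4 libraries, by gene, coloured where the passages did not overlap. On the left 36 sites are higher at P0 and 13 at P8, and on the right 14 and 24, with the Ndrg1 sites at both ends of each panel.

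The wider hypoxia pathway was read from 43 further genes. At 24 of them (55.8%) both P0 libraries had more peaks than both P8 libraries, at 0 the reverse, and at 19 the libraries overlapped. By role these were 3 of 8 oxygen-sensing genes, 9 of 16 genes of glucose entry and glycolysis and 12 of 19 other targets, with 48.3% of all genes as the background above. Among the 767 sites of these genes, 14.7% were held by both P0 libraries only and 1.30% by both P8 libraries only, again close to the shares of the genome.

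The largest differences in the wider list were at Eno1, the glycolytic enzyme enolase, with 26 and 25 peaks at P0 and 18 and 12 at P8, and at Anxa2, with 23 and 22 against 12 and 14. Next and equal were Car9, a carbonic anhydrase and marker of hypoxia, with 25 and 21 against 13 and 15, and P4ha1, a collagen prolyl hydroxylase subunit, with 21 and 18 against 8 and 13. A start peak was present in all 4 libraries at 37 of the 43 genes, against 59.5% of protein-coding genes. At Hif3a, Car9 and Angptl4 it was present in the P0 libraries and in neither P8 library. Car9 had fold enrichments of 5.14 and 5.41 at P0, Hif3a 5.68 and 5.06, and Angptl4 3.10 and 3.68. P8 library A alone lacked it at Slc16a3, the lactate exporter, and at Stc1, and no library had one at Plod2. The promoter table gave no start for Angptl4, Stc1 and Plod2, so their gene ends were searched. A peak at a start inside the gene record would be missed, and a peak counted may lie at the far end of the gene.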

How the data were processed

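ATAC-seq libraries of 50000 cells, 2 at P0 and 2 at P8, were sequenced with 50 bp paired-end reads. The authors aligned them with Bowtie2 and called peaks with MACS2 at default settings in each library; the build named in the submitters' processing notes is mm10. For every peak the authors deposited its position, the pileup at the summit (a signal in tags, not scaled for depth), the fold enrichment, a ratio of pileup to local background with 1 added to each, and 2 columns of −log10 values, for the p-value and the q-value. Their DiffBind table, with fold changes and FDR between passages, was not used here. Libraries were told apart by peak names, and 0 columns of values per library were left unused.

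The local background was recomputed from pileup and fold enrichment, and the deposited −log10 p-values equalled those of a Poisson distribution with it within 0.02 in 100% of peaks. Its lowest value gave the depth in tags per 10 kb, with each tag 73 bp long after extension. Peaks on chromosomes were joined into sites where they overlapped by at least 1 bp, and for several peaks of a library in a site the highest value was taken. Genes and promoters came from RefSeq tables of GRCm38.p6, which is mm10. Exons, introns and site sequences were not analysed here, since no genome was used. A count or order of libraries is a description, because an exact permutation test of 2 against 2 cannot go below p = 0.333. Matched background kept peaks whose −log10 p at the lowest background of the 4 libraries was at least 3.38. Named are the 10 genes, the highest site of each window, the sites held by 1 passage only (up to 3 per gene with values), the 5 largest differences in each direction and, of the wider list, the 3 largest differences and the genes lacking a start peak; gene starts and other sites that the text gives were added after their values were seen. The 10 genes, the wider list and the markers were chosen with earlier results of these data known. A result on 1 gene of the wider list is not reported here. The steps were tested on simulated peaks. The work was done in Python 3.11.15 with pandas 2.3.3 and numpy 2.4.6, statistics with scipy 1.17.1 and plots with matplotlib 3.10.9.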

Additional observations from a re-analysis of the deposited data

How the results depend on the processing

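Of 77 values computed under other settings, 56 stayed within 1.5 times the reported count, or within the spread between libraries, and 21 did not. Peaks with a −log10 p of at least 10 kept fewer sites (113). Of these, 20 were held by both P0 libraries only, or 17.7% against 20.9% of all sites. Both P8 libraries only held 2, or 1.77% against 1.59%. Of the 49 in all 4 libraries, 17 were higher by fold enrichment in both P0 libraries, or 34.7% against 52.7% of all sites. Higher in both P8 libraries were 10, or 20.4% against 8.93%. A 10 kb window gave 18 sites held at P0 only (16.7%) and 2 at P8 only (1.85%), against 17.1% and 1.82% of all sites. A 100 kb window gave 56 (16.1%) and 7 (2.01%). Higher at P0 were 17 of 43 sites (39.5%) at 10 kb and 62 of 125 (49.6%) at 100 kb, against 49.9%. Higher at P8 were 11 (25.6%) and 16 (12.8%), against 11.6%. The counts follow the window size by construction, while the shares by fold enrichment differed between the windows. Sites whose nearest gene is one of the 10 gave 23 of 57 higher at P0, or 40.4% against 49.9% of all sites. Higher at P8 were 11, or 19.3% against 11.6%. A reciprocal overlap of 50% gave 9 of 314 sites held by both P8 libraries only, or 2.87%, with no share over all sites computed at this setting. Pileup over background without the added 1, an alternative chosen after seeing the data, gave 14 sites higher at P0, 24 higher at P8 and a median log2 ratio of 0.010. Leaving out each library in turn gave from 38 to 78 sites held at P0 only, from 4 to 13 at P8 only, from 42 to 52 higher at P0, from 19 to 26 higher at P8, a median log2 ratio from 0.07 to 0.17 and a peak ratio from 1.22 to 1.56. Fewer libraries then had to agree. Sites higher at P0 were 57.0% without P0 library A, against 59.4% of all sites, and 47.2% without P0 library B, against 57.6%. Without P8 library A they were 54.7% against 57.2%, and without P8 library B 56.8% against 66.2%. Sites held at P0 only were 25.5% against 28.7% without P0 library A. They were 17.8% against 20.5% without P8 library A and 21.7% against 24.5% without P8 library B. The number of genes with more peaks in both P0 libraries, 7 as reported, ran from 5 to 9 over all settings tried, which were chosen after seeing the data. Matched background left 32, 4, 36 and 13 for the 4 counts of sites. As shares these were 15.0%, 1.87%, 43.9% and 15.9%, against 17.0%, 2.01%, 50.0% and 11.4% of all sites.

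No paired analysis was possible because the peak names carry no replicate number, so no P0 library is tied to a P8 library. Depth limits the weak peaks: absence of a peak in a P8 library is absence of a call at that depth, and does not show closed chromatin. Read counts per site were not used here. The exact permutation test of 2 libraries against 2 cannot pass 0.05, and no model across sites was fitted.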
